A study of Homo sapiens with 6 samples.

Results

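The genes described here are 9 genes of retinoic acid metabolism, transport and reception, out of 58735 genes counted in SY5Y cells with and without DLX5 overexpression. They were chosen by name: ALDH1A2, DHRS3, CRABP1, CRABP2, RARA, RARB, RARG, CYP26A1 and CYP26B1. All 9 were found in the gene tables. The list was drawn up with this comparison already in view, so the members' own values are given as a description without a test. SY5Y is a human neuroblastoma line with the character of a sympathetic neuroblast. RNA was sequenced from 3 libraries of SY5Y cells made to overexpress DLX5, a homeobox transcription factor, and from 3 libraries of control SY5Y cells. Both groups were grown in the same serum-containing medium, and the labels name no added retinoid. The labels leave out how DLX5 was introduced, what the control cells received and whether the line is 1 clone.

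Retinoic acid is the active form of vitamin A. Cells oxidise retinol to retinal and retinal to retinoic acid, cellular retinoic acid binding proteins carry it, and enzymes of the CYP26 family hydroxylate it for removal. In the nucleus it binds the receptors RARA, RARB and RARG, which pair with RXR receptors on direct repeats of a hexamer in DNA. Neuroblastoma lines are known to slow their growth and extend neurites when given retinoic acid, and retinoids are used in neuroblastoma treatment. CYP26A1, RARB, DHRS3 and CRABP2 are known from other systems as genes that retinoic acid itself induces.

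Between 14644077 and 16886026 reads were assigned to genes per library. DLX5 stood at 1582, 1569 and 1677 CPM (counts scaled to library size with TMM factors) in the DLX5 libraries, against 12.4, 12.35 and 13.76 CPM in the controls, so each library matched its label. Whether replicates came from separate cultures is not in the labels, so a p-value here reflects library-to-library spread that may be technical. All 8 markers of sympathetic and neuroblastoma identity, among them HAND2, TH and DBH, had counts in both groups. TH was close to absent with DLX5, at 2 counts over the DLX5 libraries, against 80 over the controls. All 8 were lower with DLX5, where 28.8% of all tested genes were lower in the test given below. Their summed level was 1558 to 1685 CPM in the DLX5 libraries and 3907 to 4306 CPM in the controls. TH reached the level needed for that test in the controls alone, so it could enter only by being high there.

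Direct repeats for retinoic acid receptors were found in the promoters of 2 members, CYP26A1 and RARB, and these stretches are shown because both genes were higher with DLX5. Each is the 250 bases before a transcript start in RefSeq (GRCh38.p14), on the plus strand, 5′ to 3′. Capitals mark the paired hexamers, which in CYP26A1 lie on the opposite strand and so appear as their reverse complement. The CYP26A1 stretch is chr10:93073643-93073892 and the RARB stretch is chr3:25428013-25428262.
CYP26A1 promoter: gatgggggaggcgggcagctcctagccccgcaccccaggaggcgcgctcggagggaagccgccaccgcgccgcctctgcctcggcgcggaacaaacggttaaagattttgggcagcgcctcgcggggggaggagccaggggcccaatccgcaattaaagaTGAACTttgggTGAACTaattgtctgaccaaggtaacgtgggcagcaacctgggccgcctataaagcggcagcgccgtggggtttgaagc
RARB promoter: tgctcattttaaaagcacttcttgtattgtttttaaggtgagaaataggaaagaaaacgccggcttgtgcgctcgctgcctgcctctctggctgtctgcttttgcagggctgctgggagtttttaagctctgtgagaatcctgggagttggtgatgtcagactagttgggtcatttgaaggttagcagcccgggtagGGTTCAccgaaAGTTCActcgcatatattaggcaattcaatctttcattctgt

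Read on the strand that carries the hexamers, the repeats themselves compare as follows, with the hexamers in capitals and the gap between them in lower case.
CYP26A1 repeat: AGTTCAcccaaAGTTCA
RARB repeat: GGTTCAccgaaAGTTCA
The CYP26A1 repeat covers positions -90 to -74 before its start, and the RARB repeat positions -53 to -37 before its own. The hexamers searched were the receptor consensus AGGTCA, its other spelling AGTTCA, and the same pair beginning with G, GGGTCA and then GGTTCA, on both strands, alone and as 2 copies in the same orientation with a gap of 1, 2 or 5 bases. With a gap of 5 bases, the repeat stood in 31 of all 35116 promoter windows of 300 bases (0.0883%) and in 2 of the 18 windows of the 9 members. The hexamer spellings were chosen with the members known, and elements of RARB and CYP26A1 are among the known examples behind that consensus. The member counts here are therefore a description, and nothing is read from them beside the shares of all windows. With gaps of 1 and 2 bases it stood in 0.131% and 0.0399% of all windows and in 0 of the 18. A lone hexamer was common, in 38.6% of all windows and in 9 of the 18. The homeodomain core TAATTG, the kind of sequence DLX proteins are known to bind, was in 7.38% of all windows. Among the members it was found in CYP26A1 alone, on both sides of the repeat, at positions -100 to -95 and -74 to -69, the later copy sharing its first base with the repeat. TAATTA was in 4.84% of all windows and in 1 window of a member, at another start of RARB. These are matches of letters, and the gene counts do not show which start was used.

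Retinoic acid synthesis was represented by ALDH1A2, the retinaldehyde dehydrogenase that makes retinoic acid in much of the embryo (ENSG00000128918, chromosome 15, 57953424 to 58497866, minus strand, GRCh38). It stood at 4.09, 5.17 and 4.26 CPM in the DLX5 libraries, against 0.603, 0.539 and 0.609 CPM in the controls. Every DLX5 library lay above every control library, at a low level in both groups. The log2 difference was 2.93 with a standard error of 0.27, on 218 counts in the DLX5 libraries and 28 in the controls. In bulk RNA, more cells that carry a message and more message per cell cannot be told apart, and this holds for every value below. ALDH1A2 reached the level needed for the test, about 0.617 CPM, in 3 DLX5 libraries and in only 1 control library, so a gene like it could enter the test only by being high with DLX5.

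DHRS3, a reductase that turns retinal back into retinol and so draws substrate away from synthesis, was also higher (ENSG00000162496, chromosome 1, 12567910 to 12617731, minus strand). It stood at 8.90, 11.36 and 9.31 CPM in the DLX5 libraries, against 2.68, 1.86 and 2.25 CPM in the controls. The groups did not overlap, and the log2 difference was 2.12 ± 0.18 (SE). DHRS3 was the most variable of the tested members in the controls, with a coefficient of variation of 18.2% there and 13.4% in the DLX5 libraries.

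Both carriers were higher, CRABP2 by far the more. CRABP2, which is known to hand retinoic acid to the receptors in the nucleus, stood at 514.9, 503.9 and 541.7 CPM in the DLX5 libraries, against 66.3, 64.6 and 62.2 CPM in the controls (ENSG00000143320, chromosome 1, 156699606 to 156705816, minus strand). The log2 difference was 3.02 ± 0.06 (SE), or 8.09-fold, with no overlap between groups. CRABP1, known for holding retinoic acid in the cytosol, stood at 54.4, 53.9 and 60.3 CPM with DLX5, against 24.8, 27.1 and 26.2 CPM in control (ENSG00000166426, chromosome 15, 78340324 to 78348230, plus strand). That is a log2 difference of 1.11 ± 0.08 (SE), or 2.16-fold, again with no overlap.

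Levels of different genes were set side by side as FPKM, which divides by gene length. By mean FPKM, CRABP2 ranked 33 among all 19951 protein-coding genes in the DLX5 libraries and 539 in the controls. CRABP1 ranked 531 in the DLX5 libraries and 1519 in the controls. The ratio of CRABP2 to CRABP1 FPKM was 8.54, 8.44 and 8.11 in the DLX5 libraries, against 2.41, 2.15 and 2.14 in the controls. CRABP2 thus made up 89.3% ± 0.260 of the summed carrier FPKM with DLX5 and 69.1% ± 1.43 in control (SD, n = 3 each), as the stacked bars of FPKM show. The sum itself was 524.8 ± 19.8 FPKM with DLX5 and 84.1 ± 1.49 FPKM in control.

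**Figure D1:**
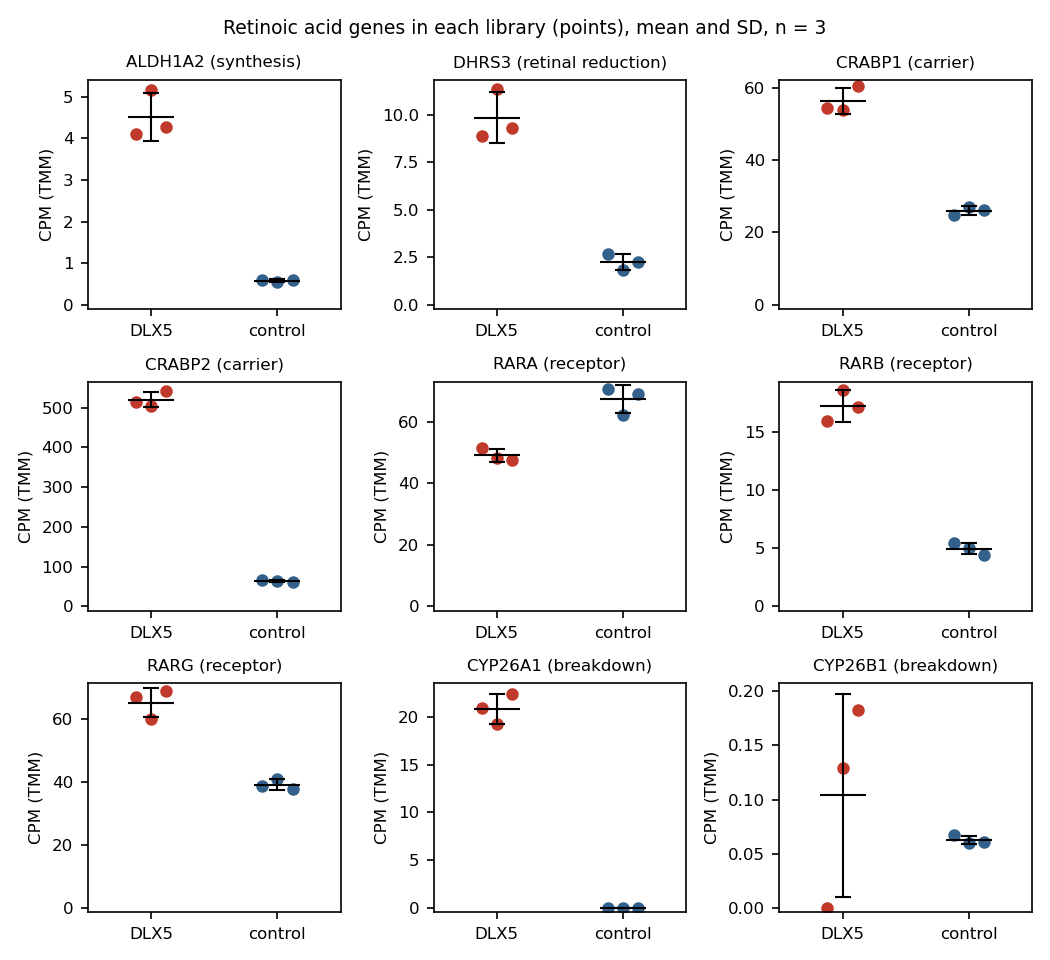
Each panel shows 1 of the 9 genes, with CPM on a linear axis; points are libraries, the wide tick is the mean and the bar the SD (n = 3). DLX5 libraries (red, left) lay above controls (blue, right) for 7 genes and below them for RARA, and the groups overlapped for CYP26B1, which had at most 3 counts in a library. Over all 17269 tested genes the groups did not overlap for 62.5%, 31.7% higher and 30.8% lower, and nothing is read from the member count.

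The 3 receptors differed in direction. RARA, the most abundant receptor of the controls, was lower with DLX5, while RARB and RARG were higher. RARA stood at 51.5, 48.4 and 47.6 CPM in the DLX5 libraries, against 70.8, 62.3 and 69.2 CPM in the controls (ENSG00000131759, chromosome 17, 40309192 to 40357643, plus strand). Its log2 difference was -0.45 ± 0.07 (SE), with every DLX5 library below every control.

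RARB, the receptor gene best known as a retinoic acid target, stood at 15.9, 18.6 and 17.1 CPM with DLX5, against 5.43, 5.04 and 4.45 CPM in control (ENSG00000077092, chromosome 3, 25174332 to 25597932, plus strand). Its log2 difference was 1.79 ± 0.13 (SE), or 3.46-fold. RARG, known for its part in skeleton and skin, stood at 66.7, 59.9 and 68.6 CPM with DLX5, against 38.6, 40.9 and 37.6 CPM in control (ENSG00000172819, chromosome 12, 53210567 to 53232980, minus strand). Its log2 difference was 0.74 ± 0.07 (SE), or 1.67-fold. Neither gene had overlapping groups.

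Per gene length, the order of the receptors was RARG, RARA and RARB with DLX5, and RARA, RARG and RARB in control. RARA held 37.5% ± 1.46 of the summed receptor FPKM in the DLX5 libraries and 61.4% ± 2.51 in the controls (SD, n = 3 each). RARG held 45.7% ± 2.20 with DLX5 and 32.9% ± 2.26 in control. RARB held 16.8% ± 1.74 with DLX5 and 5.79% ± 0.521 in control. The shares moved more than the total, which was 27.9, 26.8 and 27.8 FPKM in the DLX5 libraries, against 23.8, 22.3 and 23.0 FPKM in the controls. In each group the 3 receptors kept apart from each other in every library.

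**Figure D2:**
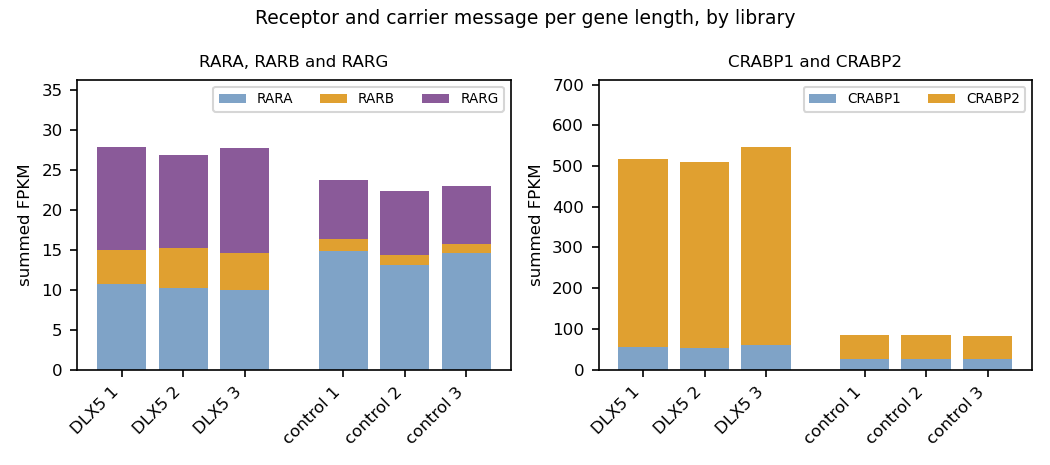
Stacked bars give the deposited FPKM of the receptors (left panel) and the carriers (right panel) in each of the 6 libraries, DLX5 first and control after it, on linear axes from 0. RARA is the largest receptor segment in the controls and RARG in the DLX5 libraries, and CRABP2 accounts for most of the carrier bars, 89.3% with DLX5 and 69.1% in control.

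The breakdown enzymes differed from each other. CYP26A1, the retinoic acid hydroxylase that many cells switch on when exposed to retinoic acid, had 347, 298 and 368 counts in the DLX5 libraries and 0 counts in each of the 3 controls (ENSG00000095596, chromosome 10, 93073475 to 93077890, plus strand). Its level was 20.9, 19.2 and 22.4 CPM with DLX5 and 0 CPM in control. Set against a floor of 3 counts over the control group, it was at least 334-fold higher, a limit that covers counting error only and was 218 to 230 with any 1 control library left out. By mean FPKM it ranked 6130 among protein-coding genes in the DLX5 libraries, at 6.95 ± 0.507 FPKM (SD, n = 3), between RARA and RARB. No control library reached the level needed for the test, so CYP26A1 too entered the test through the DLX5 libraries alone.

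CYP26B1, the related hydroxylase known from limb and germ cell development, was close to absent in both groups (ENSG00000003137, chromosome 2, 72129238 to 72148038, minus strand). It had 0, 2 and 3 counts in the DLX5 libraries and 1 count in each control. The ratio of scaled counts was 1.65, with an exact 95% binomial counting interval of 0.321 to 10.6, so a difference was not detectable at this depth. It was the 1 member left out of the test for low counts.

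Of the 8 members that were tested, 7 were called higher and 1 lower at a Benjamini-Hochberg adjusted p under 0.05 with edgeR's quasi-likelihood test over all genes. Calls were common in this comparison: 58.6% of the 17269 tested genes passed, 29.8% higher and 28.8% lower, and the groups did not overlap for 62.5% of them, 31.7% higher and 30.8% lower. The members were picked with this contrast known, and nothing is read from their count. Within a group the tested members varied by 3.19% to 18.2% between libraries (coefficient of variation of CPM). The direction of each called member was the same in all 14 alternative settings. The size was not: on log2(FPKM + 1) values, where a pseudocount shrinks low genes, the log2 difference was 0.51 for ALDH1A2, 1.28 for DHRS3 and 1.26 for RARB, and on log2(FPKM + 0.1) values it was 1.88 for ALDH1A2.

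**Figure D3:**
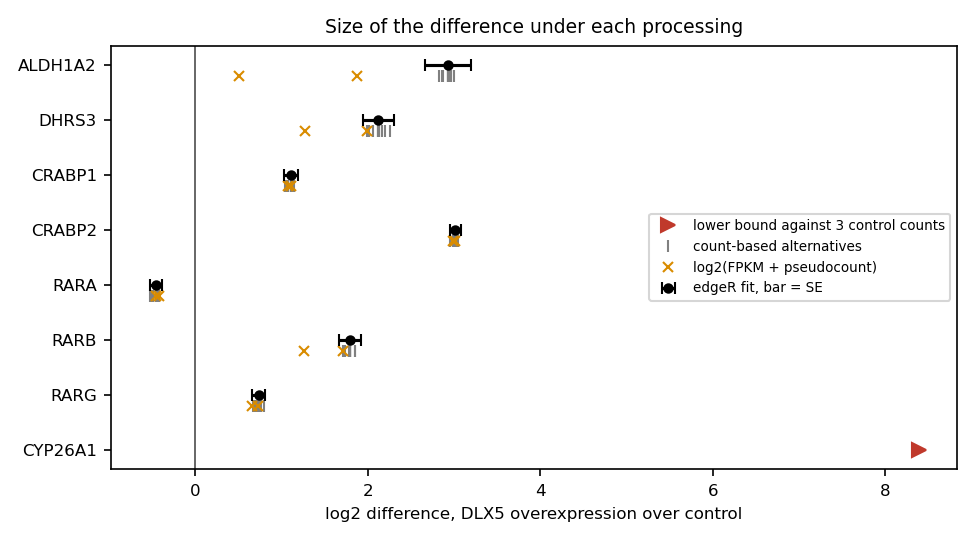
The horizontal axis is the log2 difference of DLX5 overexpression over control; black points are the edgeR estimate with its SE, grey ticks the count-based alternatives and orange crosses the log2(FPKM + pseudocount) values. RARA alone lies below 0, at -0.45, and the log2(FPKM + 1) crosses fall well short of the black points for ALDH1A2, DHRS3 and RARB, at 0.51, 1.28 and 1.26, while CYP26A1 is drawn as a lower bound because its controls held 0 counts.

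Reads of overlapping genes bear on some of these values, since no source used here says whether reads were counted by strand. RARA-AS1 lies antisense to RARA, shares 556 exonic bases with it and took 192 counts in the DLX5 libraries and 190 in the controls, 6.80% of the RARA counts in all. RARB shares 28 exonic bases with TOP2B, which runs the other way and held 15671 counts with DLX5 and 15313 in control. ALDH1A2 shares 354 exonic bases with AQP9, which had 8 counts in all. CYP26A1 shares 750 exonic bases with a noncoding gene on its own strand that had 0 counts. How reads in shared bases were assigned is not given, so those 0 counts do not show how many fell there. The FPKM and rank of CYP26A1 carry this limit.

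Taking the nearest tested protein-coding gene on each side of each member, with overlapping genes such as TOP2B left out, gave 18 genes. Of these, 6 were higher, 6 lower and 6 not called, beside 29.8% higher and 28.8% lower among all tested genes. Whether the neighbours differ from other genes was not tested. Of the CYP26A1 neighbours, EXOC6, at 13982 bases, had a log2 fold change of -0.09 ± 0.11 (SE) and did not pass (adjusted p = 0.508), while MYOF, at 228539 bases, rose by 3.83 ± 0.09 (adjusted p = 1.64e-22). CYP26C1, another retinoic acid hydroxylase gene of the CYP26 family, had 8 counts with DLX5 and 6 in control. Both neighbours of CRABP2 were lower: the intermediate filament gene NES fell by 0.94 ± 0.06 (adjusted p = 2.27e-13) and ISG20L2 fell by 0.56 ± 0.06 (adjusted p = 1.37e-08). CDC6, a replication licensing gene 4535 bases from RARA, fell by 1.26 ± 0.07 (adjusted p = 2.55e-14).

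Some genes outside the pathway had nearly the same profile over the 6 libraries, measured as the Euclidean distance of log2 CPM. Closest to CRABP2 were LBH, a transcription cofactor, at a distance of 0.169, and the integrin gene ITGB5 at 0.408. LBH stood at a mean of 535.4 CPM with DLX5 and 67.0 CPM in control. Closest to RARB were SNAP23, a membrane fusion protein gene, at 0.291, and the growth factor gene FGF1 at 0.372. SNAP23 stood at a mean of 16.4 CPM with DLX5 and 5.03 CPM in control. Closest to RARA were WDR12, a ribosome biogenesis gene, at 0.146, and the coactivator gene CRTC1 at 0.153. WDR12 stood at a mean of 47.8 CPM with DLX5 and 68.6 CPM in control. Closest to CYP26A1, though farther off, were GDA, the guanine deaminase gene, at 0.987, and the homeobox gene HMX2 at 1.185. GDA stood at a mean of 23.3 CPM with DLX5 and 2 counts over the controls. The nearest profile lay at 0.2 for CRABP1 (PARVA), 0.23 for RARG (CALCOCO1) and 0.416 for ALDH1A2 (PLEK2). With 6 libraries in 2 groups this measure mostly reflects the level in each group.

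The rest of the retinoid pathway was followed in 81 further genes in 5 lists. Of these, 45 were expressed enough to test, and 21 were higher, 13 lower and 11 not called with DLX5 (edgeR, adjusted p under 0.05 over all 17269 genes, 58.6% of which were called). Their median log2 fold change was 0.14, beside -0.0018 over all tested genes. None of these 81 is a member.

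Genes of retinol uptake and storage split evenly, 3 of 7 tested higher and 3 lower, with a median log2 fold change of -0.17. Over all tested genes 29.8% were higher and 28.8% lower, and whether this list differs from them was not tested. STRA6, the membrane receptor that takes up retinol, averaged 99.3 ± 6.31 CPM with DLX5 and 217.4 ± 6.93 CPM in control (SD, n = 3 each). It fell by 1.13 ± 0.06 on the log2 scale (SE, adjusted p = 1.37e-14). SCARB1, a scavenger receptor that takes up carotenoids and lipoprotein lipid, fell by 0.57 ± 0.07 (adjusted p = 4.93e-08). RBP7, a cellular retinol binding protein gene, rose by 4.47 ± 0.29 (adjusted p = 5.38e-13), to 6.63 ± 1.01 CPM with DLX5, against 0.288 ± 0.0805 CPM in control. Its log2 difference was 2.69 on the log2(FPKM + 1) scale. No control library reached the level needed for the test, so RBP7 entered it through the DLX5 libraries alone. STRA6 shares 540 exonic bases with CCDC33 on the other strand, which held 7.10% as many counts, 326 with DLX5 and 758 in control. LRAT, which esterifies retinol for storage, had 0 counts in all 6 libraries.

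Among the enzymes between retinol and retinal 3 of 6 tested were higher and 2 lower, with a median of 0.18. Beside this, 29.8% of all tested genes were higher and 28.8% lower, and a difference was not tested. RDH10, the retinol dehydrogenase of the embryo, which makes the retinal that ALDH1A enzymes use, rose by 2.69 ± 0.08 (adjusted p = 3.36e-20). It stood at 189.2 ± 8.23 CPM with DLX5 and 29.3 ± 4.48 CPM in control. RDH11 fell by 0.30 ± 0.07 (adjusted p = 6.06e-04). The calls of RDH14 (log2 fold change 0.27, adjusted p = 0.0245), RDH13 (-0.30, adjusted p = 0.0297) and RDH5 (0.86, adjusted p = 0.0414) were small or near the threshold and were lost in 5, 7 and 8 of the 14 alternatives. The 3 genes called higher were 1 without DLX5 replicate 3, control replicate 2 or control replicate 3, and the 2 called lower were 1 without DLX5 replicate 1 or 3 or without control replicate 1 or 2. Without scaling factors 1 gene was called higher. RDH5 also shares 2035 exonic bases with a read-through gene, BLOC1S1-RDH5.

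ALDH1A3 was the only other synthesis gene expressed enough to test. It rose by 0.71 ± 0.12 (adjusted p = 7.78e-06), to 15.8 ± 0.334 CPM with DLX5, against 9.67 ± 1.07 CPM in control. An antisense gene shares 1585 exonic bases with it and held 55.0% as many counts, 414 with DLX5 and 262 in control. That gene was thus higher with DLX5 too, and its part in the ALDH1A3 value was not tested. ALDH1A1 had 0 counts with DLX5 and 1 in control.

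**Figure D4:**
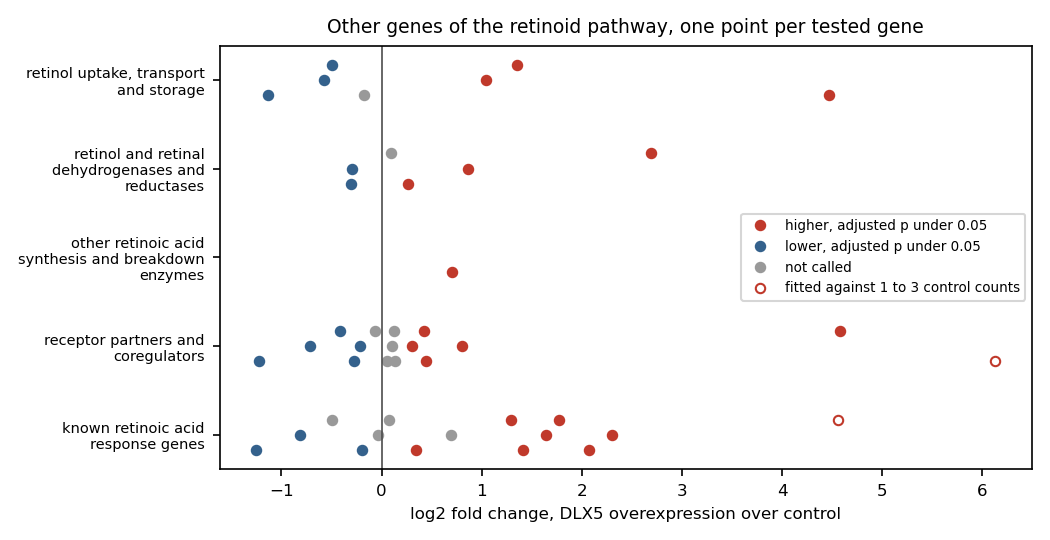
Each point is 1 of the 45 tested pathway genes outside the 9 members, placed by its log2 fold change of DLX5 overexpression over control in its list; red and blue mark genes called higher and lower, grey those not called, and open circles values fitted against 1 to 3 control counts, whose size depends on the fit. Red and blue points occur in every list with more than 1 tested gene, and RDH10 is the red point at 2.69.

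Of the receptor partners and coregulators 6 of 16 tested were higher and 5 lower, with a median of 0.12. The shares over all tested genes were 29.8% higher and 28.8% lower, and a difference from them was not tested. RXRA fell by 0.41 ± 0.07 (adjusted p = 1.28e-05) and RXRB rose by 0.43 ± 0.07 (adjusted p = 1.24e-05), while RXRG had 0 counts in all libraries. ZNF423, a zinc finger cofactor of retinoic acid receptors in neuroblastoma cells, fell by 1.23 ± 0.06 (adjusted p = 1.32e-15), to 71.1 ± 2.16 CPM with DLX5, against 166.3 ± 3.76 CPM in control. NCOA3, a coactivator, rose by 0.80 ± 0.08 (adjusted p = 1.32e-09). It shares 96 exonic bases with SULF2, which held 1371 counts with DLX5 and 3158 in control.

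Low in level but larger in ratio were NRIP1 and NR2F2. NRIP1, a corepressor that nuclear receptors recruit when bound to ligand, had 105 counts with DLX5 and 4 in control (log2 fold change 4.58, adjusted p = 3.11e-08). On the log2(FPKM + 1) scale, which shrinks low genes, the log2 difference was 0.31 for NRIP1 and 0.38 for NR2F2, and on the log2(FPKM + 0.1) scale it was 1.67 for NRIP1 and 1.96 for NR2F2. NR2F2, an orphan nuclear receptor known to be induced by retinoic acid, had 97 counts with DLX5 and 1 in control, a ratio of scaled counts of 96.0 with a 95% counting interval of 16.8 to 3830 (adjusted p = 8.42e-09). That 1 count lay in control replicate 3, without which the control group held 0. For NRIP1 and NR2F2 no control library reached the level needed for the test, so both entered it through the DLX5 libraries alone. FABP5, which carries retinoic acid to another nuclear receptor, PPARD, fell by 0.71 ± 0.12 (adjusted p = 1.69e-05), and PPARD fell by 0.28 ± 0.07 (adjusted p = 0.00189). RXRA, RXRB, RXRG, FABP5 and PPARD were named after their values were seen.

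Genes known to respond to retinoic acid went in both directions. Of 29 listed, 15 could be tested, and 8 were higher, 3 lower and 4 not called, where 29.8% of all tested genes were higher and 28.8% lower. The list was chosen with earlier results known, and its difference from other genes was not tested. The 15 had a median log2 fold change of 0.70, beside -0.0018 over all tested genes. The transglutaminase gene TGM2 averaged 821.6 ± 8.34 CPM with DLX5 and 263.5 ± 11.4 CPM in control. It rose by 1.64 ± 0.06 (adjusted p = 1.40e-18). The adhesion molecule gene ICAM1 rose by 2.07 ± 0.07 (adjusted p = 1.95e-19), the basic helix-loop-helix repressor gene BHLHE40 by 2.30 ± 0.09 (adjusted p = 1.90e-17) and the laminin gene LAMB1 by 1.298 ± 0.0584 (adjusted p = 1.74e-16). TGM2 shares 394 exonic bases with the antisense gene RPRD1B, which held 7.75% as many counts, and LAMB1 shares 70 with DLD, which held 15.8% as many.

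Other listed responders were higher, lower, not called or too low to test, and they are named here after their values were seen. PLAT rose by 1.41 ± 0.08 (adjusted p = 3.42e-14), CD38 by 1.77 ± 0.35 (adjusted p = 1.13e-04) and MEIS1 by 0.34 ± 0.07 (adjusted p = 2.98e-04). RARRES3 had 56 counts with DLX5 and 2 in control (log2 fold change 4.56, adjusted p = 2.25e-06). CD38 and RARRES3 could enter the test only by being high with DLX5. RARRES2 fell by 0.82 ± 0.20 (adjusted p = 0.00113) and MEIS2 by 0.19 ± 0.06 (adjusted p = 0.00582). RET, a receptor tyrosine kinase gene that retinoic acid raises in neuroblastoma cells, fell by 1.25 ± 0.06 (adjusted p = 4.01e-16), to 341.0 ± 8.74 CPM with DLX5, against 810.8 ± 30.6 CPM in control. NTRK2, a neurotrophin receptor gene induced by retinoic acid in SY5Y cells, had a log2 fold change of -0.03 ± 0.22 and did not pass (adjusted p = 0.905), at 2.76 ± 0.223 CPM with DLX5 and 2.82 ± 0.353 CPM in control. The 10 HOXA and HOXB genes of the list were all too low to test, with 2 counts of them in all DLX5 libraries together and 7 in all controls. HOXD4 was at 2.05 ± 0.473 CPM with DLX5 and 1.93 ± 0.546 CPM in control, a log2 fold change of 0.08 ± 0.28 (adjusted p = 0.827).

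Markers of other cell types moved in the same libraries, where 29.8% of all tested genes were higher and 28.8% lower. Of 9 fibroblast markers 8 rose and 0 fell, with a summed level of 6575 to 6834 CPM in the DLX5 libraries and 1439 to 1491 CPM in the controls, where all 9 had counts. Without scaling factors 1 of them was called lower. Most of the fibroblast sum with DLX5 was COL3A1 and COL1A1, at means of 4383 and 1947 CPM. Of 5 epithelial markers (EPCAM, CDH1, KRT8, KRT18 and KRT19) 3 rose and 1 fell, with 338.2 to 361.2 CPM in the DLX5 libraries and 18.45 to 21.58 CPM in the controls. Most of that sum was KRT18, at a mean of 311.6 CPM with DLX5 and 14.5 CPM in control. KRT19 was the gene that fell, and EPCAM was not called. CDH1 reached the level needed for the test in the DLX5 libraries alone, and KRT19 in the controls alone. Each could thus enter the test only through the group where it was high. Of 6 endothelial and blood markers 4 could be tested and 1 rose, with 2.65 to 3.85 CPM in the DLX5 libraries and 1.26 to 2.07 CPM in the controls. The 1 that rose, PECAM1, had 41 counts with DLX5 and 2 in control. No control library reached the level needed for the test, so PECAM1 entered it through the DLX5 libraries alone. The endothelial marker CDH5 was at 0 counts in the controls and the leukocyte marker PTPRC at 0 counts with DLX5, and the groups' other markers all had counts in both. The part of these markers in the retinoid values was not tested.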

How the data were processed

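Per the labels' protocols, Trizol was used for RNA and a NEBNext Ultra kit for the libraries. The authors deposited raw counts, whole reads assigned to each gene. The submitters' processing notes name HISAT2 2.0.5, featureCounts 1.5.0-p3 and the build hg19, with no settings. Every one of the 58735 gene positions nevertheless equals that of GENCODE release 29, so the printed coordinates are GRCh38. FPKM, also deposited by the authors, follows from the counts, the gene length and a library total of 0.968 to 1.03 times the summed counts, and so is not independent of them.

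The test used edgeR 4.0.16 (R 4.3.3): filterByExpr (17269 genes kept), TMM factors, and the two-sided quasi-likelihood test of 3 DLX5 libraries against 3 controls with no covariate. P-values were adjusted by Benjamini-Hochberg over all tested genes, with a threshold of 0.05. An exact permutation test of 3 against 3 cannot go below 0.1. The SE of a log2 value was derived from its F statistic. The floor was 3 counts over a group, and counting intervals are exact binomial at 95%.

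The members, the lists, the tests and the settings were chosen with earlier results of these data known. Named genes were the 9 members, up to 4 genes per list (lowest adjusted p), and the 2 closest profiles of each member (log2 CPM with a prior count of 2). Some genes that this rule names are not reported here. Other genes are said to be named after their values were seen, except DLX5, the neighbours and overlapping genes, and members of a list described by their counts, which were also chosen with values known. Promoters came from RefSeq windows of 250 bases before to 50 after a start, and all 9 members matched. Alternatives were RLE factors, no scaling factors, DESeq2 1.42.0, no filter, a filter of 1 CPM in 3 libraries, limma 3.58.1 on log2(FPKM + 1) and log2(FPKM + 0.1), the replicate number as a block, and each library left out. Figures were drawn with matplotlib 3.10.9.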

Additional observations from a re-analysis of the deposited data

How the results depend on the processing

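Over 14 alternative settings the number of genes called ran from 9277 to 10481, against 10121 as reported, and 7 members were higher and 1 lower in each. The CYP26A1 bound fell to between 218 and 230 when a control library was left out, because the floor of 3 counts then rests on fewer reads. Among the retinol and retinal enzymes the 3 genes called higher were 1 with no scaling factors, and 1 to 3 with a library left out. The 2 called lower were 1 with DESeq2, with log2(FPKM + 1) and with log2(FPKM + 0.1), and 1 to 2 with a library left out. Of the markers, 1 fibroblast gene was called lower with no scaling factors and 0 endothelial or blood genes higher with a filter of 1 CPM. The enzymes concerned were RDH5, RDH13 and RDH14, and the cause was not tested. Elsewhere in the pathway lists DGAT1, NCOR1 and RARRES1 gained a call in 4, 1 and 2 settings. Removing all scaling factors shifted the median of all genes by -0.0669 (log2). Deviations of same-numbered libraries from their group means correlated at 0.007, 0.094 and -0.04, against -0.096 to 0.098 for the other pairs. No shift shared by number was seen, and not every library correlated best with its own number. These correlations cannot tell whether same-numbered samples were prepared together. With the replicate block 10224 genes were called, RDH5 lost its call (adjusted p = 0.0621), DGAT1 gained one (adjusted p = 0.0371) and no member lost its call. Counts of 0 to 3, as for CYP26B1, are the limit of this depth.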
